A study of Mus musculus with 11 samples.

Results

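The genes described here are 10 markers of macrophages: Adgre1, Lyz2, Cd68, Csf1r, Ptprc, Pf4, Mrc1, Fcgr3, Aif1 and Lcp1. They were taken by gene symbol from the tables of all 11 libraries, and each symbol was found once in every table, 10 genes of 23238 in all. The libraries are bulk RNA sequencing of mouse cells labelled cavernous endothelial cells from the corpus cavernosum, the erectile tissue of the penis. Every culture was kept for 5 days in M199 medium with 20% fetal bovine serum, antibiotics and 0.5 mg/ml heparin, in normal glucose (n = 3), in high glucose (n = 4) or in high glucose with the heat shock chaperone Hsp70 added (n = 4). The sources used here do not state the glucose concentrations or the form and dose of Hsp70. The libraries also carry a set number in their file names. Sets 3, 4 and 5 hold 1 library of each group, and set 2 holds 1 high glucose and 1 Hsp70 library. Set 3 consists of normal glucose replicate 1, high glucose replicate 2 and Hsp70 replicate 2. What a set stands for is not stated, and the labels do not say that replicates came from separate cultures or animals, so p-values measure only the spread between these libraries.

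Macrophages are phagocytes that live in most tissues, where they take up dead cells, microbes and debris. Their survival depends on the growth factors CSF1 and IL-34, which bind the receptor encoded by Csf1r, and their gene program depends on the transcription factor PU.1, encoded by Spi1. Endothelial cells, the labelled cells, are of another lineage. Which cells the transcripts came from was not tested. In bulk RNA, fewer cells of a type and less RNA per cell cannot be told apart.

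Levels are log2(normalized count + 1), as deposited. Each library summed to 24.8 to 27.8 M normalized counts. The reads behind them, estimated from the steps between low values, were 27.9 to 31.9 M in set 3 and 23.1 to 28.3 M elsewhere. Rn45s, the ribosomal RNA precursor, took 2.11% to 4.17% of the counts in set 3 and 0.638% to 6.997% elsewhere. A normalized count of 3, a level of 2.00, was taken as the floor below which a level is not told from absence. In sets 4 and 5 an undetected gene can hold a small value above 0, while in sets 2 and 3 it holds 0. All 10 genes passed the filter for testing (3 or more libraries with a normalized count of 1 or more), but Pf4 did so only through set 3: outside it, 1 of 8 libraries reached that count.

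Promoter sequences are shown first, because PU.1 binds purine-rich sites near the start of many macrophage genes. Spi1 read higher in set 3 too, but it passed the filter only through set 3. Its split between libraries was thus favoured by the filter and adds nothing to that of the members. RefSeq promoters (GRCm38.p6) of 8 of the 10 genes were searched. Those of Adgre1 and Csf1r were not among them, so the member counts below leave both genes out. Whether their promoters hold the letters was not tested. The letters GAGGAA, the core of the PU.1 site, were searched on both strands in the 250 bases before the start, as was TATAAA, the core of the TATA box, which cannot overlap it. They occurred in 6 of the 8 genes (Cd68, Ptprc, Pf4, Mrc1, Fcgr3 and Aif1) and in 25.9% of 27025 genes. TATAAA occurred in 1 of 8 against 14.3%. The last 120 bases before the start are printed for the 4 genes that hold the core there. It lies on the opposite strand, so that it reads TTCCTC in capitals, 6 to 35 bases before the start.
Pf4, chr5:90772315-90772434, plus strand: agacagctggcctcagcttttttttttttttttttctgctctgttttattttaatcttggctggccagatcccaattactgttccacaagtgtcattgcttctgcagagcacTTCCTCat
Mrc1, chr2:14229294-14229413, plus strand: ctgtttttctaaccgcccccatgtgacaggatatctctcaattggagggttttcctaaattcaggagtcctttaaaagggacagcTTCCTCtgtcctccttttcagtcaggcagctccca
Fcgr3, chr1:171059404-171059523, minus strand: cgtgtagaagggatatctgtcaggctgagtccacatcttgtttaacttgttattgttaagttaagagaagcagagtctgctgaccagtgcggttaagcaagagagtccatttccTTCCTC
Aif1, chr17:35176053-35176172, minus strand: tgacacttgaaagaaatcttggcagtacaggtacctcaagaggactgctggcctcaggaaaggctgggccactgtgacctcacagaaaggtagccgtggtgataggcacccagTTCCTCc
In Pf4, Fcgr3 and Aif1 the core begins 8, 6 and 7 bases before the start, and in Mrc1 35 bases before it. Lyz2 has a neighbouring near copy, Lyz1, and both promoters are shown because the 2 genes split the libraries alike. Capitals mark the 9 bases at which Lyz1 differs from Lyz2.
Lyz2, chr10:117282273-117282392, minus strand: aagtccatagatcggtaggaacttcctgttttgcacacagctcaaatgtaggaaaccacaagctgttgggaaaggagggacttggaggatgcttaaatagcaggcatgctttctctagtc
Lyz1, chr10:117292869-117292988, minus strand: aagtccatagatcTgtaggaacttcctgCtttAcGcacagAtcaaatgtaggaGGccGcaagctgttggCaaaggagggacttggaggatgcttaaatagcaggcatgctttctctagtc
Over the last 100 bases 92 were identical, and over all 250, without gaps, 152. A match is only a description of letters. Binding was not measured, and no match in a window says nothing of the factor.

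The macrophage genes separated set 3 from all other libraries. Summed over the 10 genes, the normalized count was 4052 to 4798 in the 3 libraries of set 3 and 163 to 288 in the other 8, or 161.4 to 190.6 against 6.0 to 11.6 per M counts. In limma, with the group means in the model, 9 of 10 were higher in set 3 (adjusted p under 0.05 over all 18248 genes), where 6.04% of all genes were called higher, and 0 were lower, where 2.38% of all genes were. The median difference was 4.62 for the members and -0.00487 for all genes. Leaving aside Pf4, which passed the filter only through set 3, 8 of 9 were called higher, where 5.37% of 17751 genes were. The number of genes called in either direction was 1537 (8.42%). It fell to 678 without high glucose replicate 2 and to 751 without Hsp70 replicate 2, and the same number of members, 9, was called each time. The contrast was proposed with these values known, and it treats the 3 libraries of a set as separate samples. Over the 4 sets, an exact permutation of set means cannot go below p = 0.25, which each of the 10 genes reached.

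**Figure D1:**
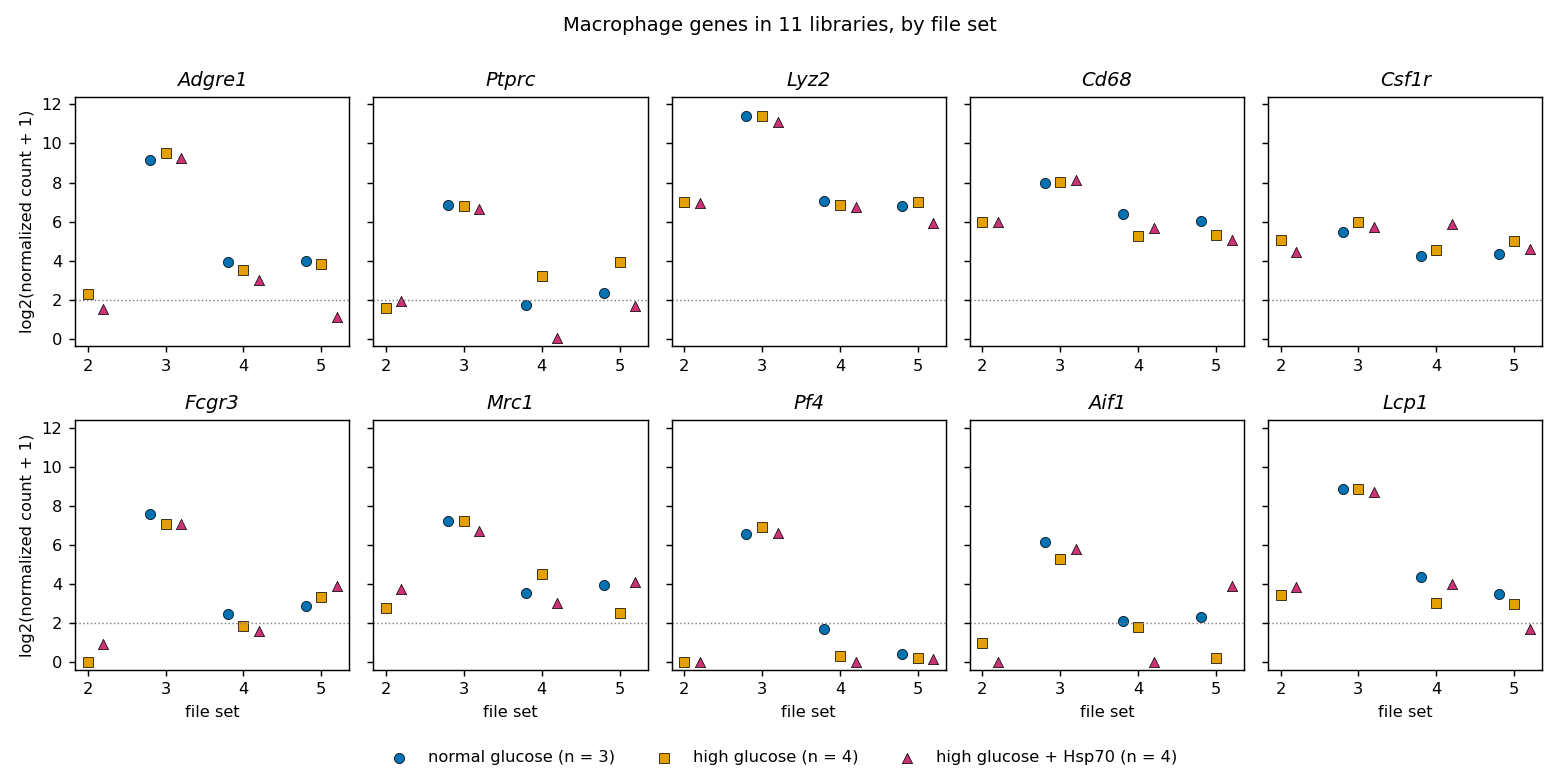
Levels of the 10 macrophage genes, as log2(normalized count + 1) on the vertical axis, in each of the 11 libraries by set, with colours for the 3 groups. The dotted line is the floor of 3 counts; the 3 libraries of set 3 lie above all others for every gene but Csf1r.

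Among the surface receptors, Adgre1 encodes an adhesion G protein-coupled receptor whose antigen is the usual surface marker of mouse macrophages. It stood at 9.14, 9.52 and 9.26 in the normal glucose, high glucose and Hsp70 libraries of set 3. In the other 8 libraries its lowest, median and highest levels were 1.13, 3.26 and 3.98. The groups of libraries do not overlap, with 5.16 log2 units between the nearest pair. Set 3 was 6.33 higher (SE 0.495, adjusted p = 1.14e-05 in limma). In counts, the mean was 636 ± 87.2 (SD, n = 3) against 8.32 ± 5.58 (SD, n = 8), a ratio of 76.4 with a 95% interval of 59.5 to 98.4. Here and below that interval covers counting error only.

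Ptprc encodes CD45, the membrane phosphatase of all nucleated blood cells, and so marks leukocytes in general. It stood at 6.86, 6.82 and 6.67 in the same order in set 3, and at 0.01, 1.82 and 3.94 (lowest, median and highest) elsewhere. All libraries of set 3 were high, and 5 of the other 8 were under the floor. The difference was 4.74 (SE 0.572, adjusted p = 0.000213 in limma), and 3.10 with a pseudocount of 10.

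Mrc1 encodes the mannose receptor CD206, an endocytic receptor of many tissue-resident macrophages. Its levels in set 3 were 7.21, 7.25 and 6.71, against 2.49, 3.66 and 4.50 (lowest, median and highest) elsewhere. None of the 8 libraries outside set 3 was under the floor, so the transcript was detected in every library. Set 3 was 3.51 higher (SE 0.433, adjusted p = 0.00024 in limma), a ratio of mean counts of 11.5 (9.18 to 14.6).

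Fcgr3 encodes the activating IgG receptor Fc gamma RIII. It read 7.61, 7.09 and 7.06 in set 3 and 0, 2.13 and 3.89 (lowest, median and highest) elsewhere, where 4 of 8 libraries were under the floor. The difference was 5.09 (SE 0.700, adjusted p = 0.000571 in limma). Of the 50-base words in its transcripts, 9.58% occur also in those of Fcgr2b, the inhibitory IgG receptor, and 0% in those of Fcgr4, another activating receptor. Fcgr2b was 1.75 higher in set 3 (adjusted p = 0.00383 in limma) and Fcgr4 1.90 (adjusted p = 0.0208). How the authors assigned reads that fit 2 genes is not given, so part of the Fcgr3 value may belong to Fcgr2b.

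Csf1r, the receptor for CSF1 and IL-34, was the exception. It stood at 5.45, 5.96 and 5.71 in set 3 and at 4.26, 4.58 and 5.86 (lowest, median and highest) elsewhere. The highest of the other libraries, Hsp70 replicate 3 of set 4, lay within the range of set 3. The difference of 0.99 (SE 0.320, 95% interval 0.29 to 1.69) was not called (adjusted p = 0.0852 in limma). It was called without Hsp70 replicate 3, at 1.14 (adjusted p = 0.00888 in limma), and with libraries weighted by their quality, at 1.06 (adjusted p = 0.000427). With those weights, whose estimation stopped before its convergence tolerance, 6150 genes were called between set 3 and the rest, against 1537 without them. Mean counts were 51.7 ± 9.16 (SD, n = 3) and 27.98 ± 12.9 (SD, n = 8). Csf1r lies on chromosome 18 (mm10, 61100598 to 61132149) and shares 873 exonic bases with Hmgxb3 on the opposite strand, which read 9.23 to 9.56 in set 3 and 9.57 to 10.01 elsewhere. Its neighbour on the same strand, the pericyte and fibroblast receptor gene Pdgfrb, ends 15536 bases before it and read 12.16 to 12.57 in all libraries. Whether either gives reads to Csf1r was not tested.

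Among the genes of lysosomes and secreted products, Lyz2 encodes lysozyme M, the bacterial cell wall enzyme of macrophages and neutrophils. Its levels in set 3 were 11.39, 11.41 and 11.11, against 5.91, 6.91 and 7.04 (lowest, median and highest) elsewhere. Per kilobase of exon it was the highest of the 10 in every library, and its standard error was the smallest of the 10. The difference of 4.50 (SE 0.201) gave the lowest adjusted p of all 18248 genes (5.08e-07 in limma). Lyz2 lies on chromosome 10 (mm10, 117277331 to 117282321), 5475 bases from Lyz1, and 15.4% of the 50-base words of its transcripts occur also in Lyz1. Lyz1, lysozyme P, was 4.20 higher in set 3 (adjusted p = 7.92e-06 in limma). Its mean counts were 362 in set 3 and 18.5 elsewhere, against 2532 and 112 for Lyz2. How reads that fit both genes were assigned is not given, so part of the Lyz1 value may belong to Lyz2.

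Cd68 encodes macrosialin, a glycoprotein of the lysosomal membrane. It read 7.96, 8.03 and 8.14 in set 3 and 5.03, 5.82 and 6.39 (lowest, median and highest) elsewhere. All 8 libraries outside set 3 were far above the floor, at a mean of 53.3 ± 17.1 counts (SD). The difference was the smallest of the 9 called, 2.31 (SE 0.263, adjusted p = 0.000143 in limma), a ratio of 4.94 (4.38 to 5.56).

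Pf4 encodes platelet factor 4 (CXCL4), a chemokine made by megakaryocytes and by tissue macrophages. It stood at 6.54, 6.90 and 6.59 in set 3 and at 0, 0.18 and 1.70 (lowest, median and highest) elsewhere, under the floor in 8 of 8. Set 3 was 6.28 higher (SE 0.418, adjusted p = 4.77e-06 in limma), and 3.42 higher with a pseudocount of 10. Since the counts outside set 3 sum to 3, the ratio of means, 263, has an interval of 92.2 to 1326. Among 5 tested genes of platelets and megakaryocytes, 1 was called higher in set 3 (Ppbp, 1.85), and it passed the filter only through set 3; without set 3 the filter left 4 genes, 0 of them called. Itga2b, the platelet integrin, read 5.40 to 6.18 in set 3 and 4.20 to 6.29 elsewhere.

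The last 2 members act on the actin cytoskeleton. Aif1, which encodes the calcium-binding protein IBA1 of macrophages and microglia, read 6.16, 5.30 and 5.77 in set 3 and 0, 1.38 and 3.88 (lowest, median and highest) elsewhere. The highest outside value was Hsp70 replicate 4, and 5 of 8 were under the floor. Its difference was 4.26 (SE 0.733, adjusted p = 0.00253 in limma), and 2.30 with a pseudocount of 10. Lcp1 encodes L-plastin, which bundles actin in leukocytes, and read 8.85, 8.89 and 8.71 in set 3 and 1.70, 3.44 and 4.34 elsewhere. Its difference was 5.43 (SE 0.454, adjusted p = 1.59e-05 in limma), with no overlap between the sides.

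In all, 9 of 10 members had every library of set 3 above every other library, against 8.14% of all genes tested. The 9 include Pf4, which passed the filter only through set 3, so its separation was favoured by the filter. All genes tested also include some that passed only through set 3.

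**Figure D2:**
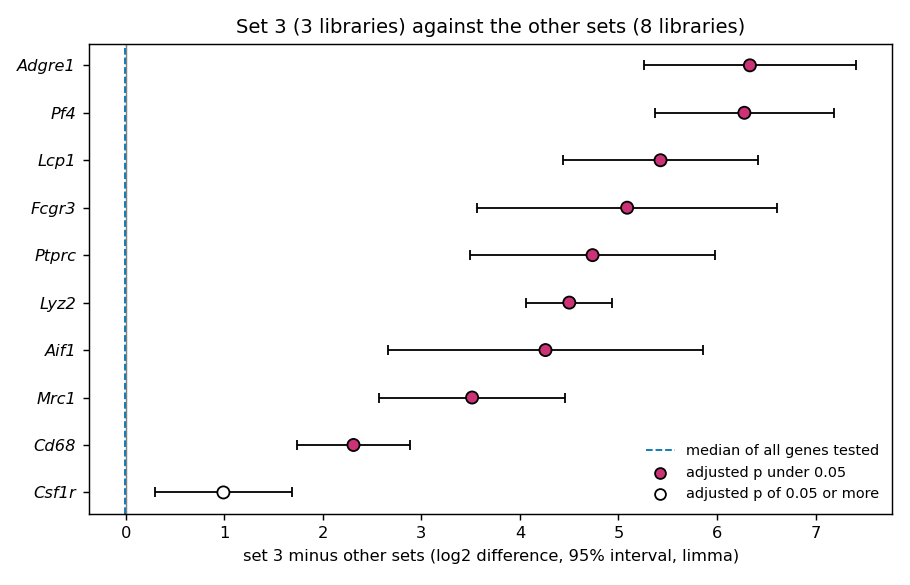
Difference of set 3 from the other sets for each of the 10 genes, in log2 units with limma's 95% interval. The differences run from 0.99 (Csf1r, not called) to 6.33 (Adgre1).

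Per kilobase of exon, Lyz2 led in set 3 at 1924 ± 218 normalized counts (SD, n = 3), followed by Cd68 (210), Adgre1 (196), Pf4 (141), Fcgr3 (88.7), Lcp1 (47.4), Aif1 (35.3), Mrc1 (21.01), Csf1r (8.95) and Ptprc (5.96). Of neighbours in that order, the ranges over libraries overlapped for Cd68 with Adgre1 and for Lcp1 with Aif1. In the other 8 libraries the order was Lyz2 (85.2 ± 17.6, SD), Cd68 (42.4), Csf1r (4.85), Fcgr3 (2.81), Adgre1 (2.57), Aif1 (2.00), Mrc1 (1.82), Lcp1 (1.10), Pf4 (0.538) and Ptprc (0.244). There the ranges of all neighbours overlapped except those of Cd68 and Csf1r. Csf1r had rank 9 in set 3 and rank 3 elsewhere, and Adgre1 ranks 3 and 5. The length is that of all annotated exons of a gene in GENCODE M21 together, 18313 bases for Ptprc and 721 for Pf4, so a gene with long and rarely used exons has a lower value per kilobase.

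**Figure D3:**
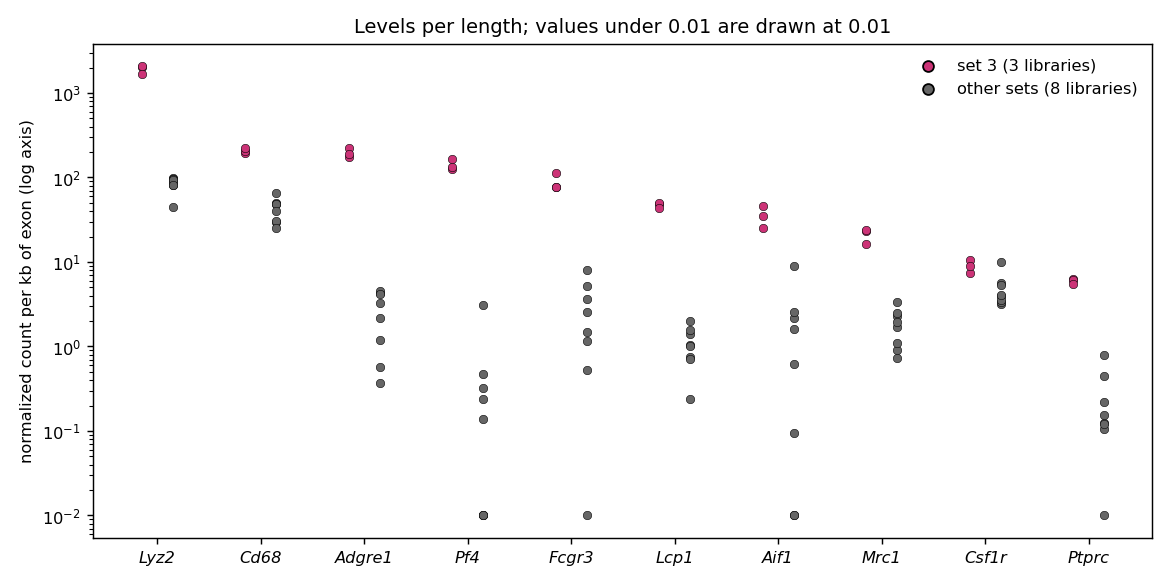
Normalized counts per kilobase of exon, on a log axis, for each of the 10 genes in set 3 and in the other sets, with points for libraries and values under 0.01 drawn at 0.01. Lyz2 lies highest on both sides, at means of 1924 and 85.2.

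Other genes were read from lists for the same cell type, and the lists differed in how many of their genes were higher in set 3. Which cells gave these transcripts was not tested. Of 10 tested transcription factors 4 were higher in set 3: Spi1 (5.39), which encodes PU.1 and read 5.97 to 6.18 in set 3 and at most 2.61 elsewhere, Ikzf1 (2.72), Cebpb (0.71) and Pparg (0.56). Maf, which also acts in macrophages, read 10.22 to 11.13 in set 3 and 9.75 to 10.42 elsewhere, and was not called. Of 14 genes of C1q and the scavenger receptors 9 were higher, led by Marco (6.28), C1qb (5.67), C1qc (5.06) and C1qa (4.99). The C1q genes encode the chains of the first complement component, and their highest level outside set 3 was 1.25. Cd163, the haemoglobin scavenger receptor, and Trem2, a lipid receptor, were not called, at -0.05 and 0.25.

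Of 12 genes of Fc receptor signaling 10 were higher, led by Laptm5 (5.23), the adaptor Tyrobp (5.02) and the Fc receptor gamma chain Fcer1g (4.90). Of 17 genes of leukocyte integrins, NADPH oxidase and cytoskeleton 10 were higher, led by Itgal (4.93), Ncf1 (4.27), Hcls1 (4.04) and Cd52 (3.92). In the same list 1 was lower, Arhgdib (-0.71). Itgb2 (-0.19), Cd53 (-0.09), Cybb (0.23) and Cyba (0.07) were not called, though none of them read below 6.96 outside set 3. Itgax (1.63) and Was (1.11) were not called either. Among 12 lysosomal genes Ctss alone was higher (5.00), and the list's median was -0.20. The cathepsins Ctsb and Ctsd, which most cells make, read 14.75 to 15.53 and 14.10 to 15.15 over all libraries. Of 6 genes of MHC class II presentation 1 was called, H2-Ab1 (2.29).

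Of 8 genes of resident and alternatively activated macrophages 3 were higher: Cd209f (6.37), Retnla (4.17) and Cbr2 (1.19). Of 14 inflammatory genes 8 were higher, led by the chemokines Ccl3 (4.69) and Ccl4 (4.19) and the cytokines Tnf (2.95) and Il1b (2.92), and 2 were lower, Nos2 (-0.77) and Cd80 (-0.53). The ligand Csf1 was abundant everywhere and lower in set 3 (difference -0.68, SE 0.168, adjusted p = 0.0233 in limma), at 12.55 to 12.68 against 12.97 to 13.71. Il34, the other ligand of Csf1r, read 5.80 to 6.26 in set 3 and 5.36 to 5.85 elsewhere and was not called. In each list, passing the filter only through set 3 favoured a higher value there. On the filter without set 3, the counts called higher were 3 of 9 transcription factors, 8 of 13 C1q and scavenger genes, 7 of 9 Fc receptor genes, 8 of 15 integrin and cytoskeleton genes and 6 of 12 inflammatory genes. Over all genes 6.04% were called higher, and 5.37% on the filter without set 3. Spi1 and Tyrobp passed only through set 3. The C1q, integrin and inflammatory lists also lost called genes on that filter, in each list including a gene named above. C1qa and Ccl4 read at most 1.01 outside set 3, under the floor.

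Markers of other cell types also moved with set 3. Of 14 endothelial markers 13 were higher, led by Tie1 (5.67), Pecam1 (5.46), Robo4 (5.39) and Cldn5 (4.66), and their summed counts were 2021 to 2194 against 345 to 548. Outside set 3 the markers of the labelled cell type were mixed: 7 of the 14 were at or above the floor in all 8 libraries, such as Cdh5 (5.68 to 8.26), Egfl7 (6.69 to 7.73) and Tek (5.09 to 6.44), and 3, Cldn5, Robo4 and Sox17, were under it in all 8. Fibroblast markers summed to 333890 to 410340 in set 3 and 172870 to 278700 elsewhere, with 3 of 10 higher (Lum, 2.24; Dcn, 1.90; Thy1, 1.28) and 1 lower (Fap, -0.77). Of 5 mast cell genes 3 were higher (Kit, 4.62; Mcpt4, 2.49; Cpa3, 2.26), and the list summed to 61.2 to 91.7 counts against 6.78 to 15.1. On the filter without set 3, 2 of 3 mast cell genes and 11 of 12 endothelial markers were called higher, where 5.37% of all genes were. Cldn5 passed only through set 3, as did another called endothelial marker and a called mast cell gene among those named. Of 7 monocyte and dendritic cell genes 1 was called (Ccr2, 2.66), and of 5 neutrophil genes 2 (S100a8, 1.80; Camp, 0.78). None of 6 genes of T and NK cells and none of 3 of B cells was called; they summed to 123 to 169 and 7.15 to 11.5 counts in set 3, and to 56.2 to 162 and 2.01 to 14.6 elsewhere. Of 8 Schwann cell genes 5 were higher (led by Erbb3, 4.03, and Sox10, 3.86), and of 7 pericyte genes 4 (led by Mcam, 3.78, and Rgs5, 3.32) with 1 lower (Cspg4, -1.55). Of 8 smooth muscle genes 2 were higher (Des, 4.79, and Myh11, 1.82). The part of these cell types in the macrophage values was not tested.

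**Figure D4:**
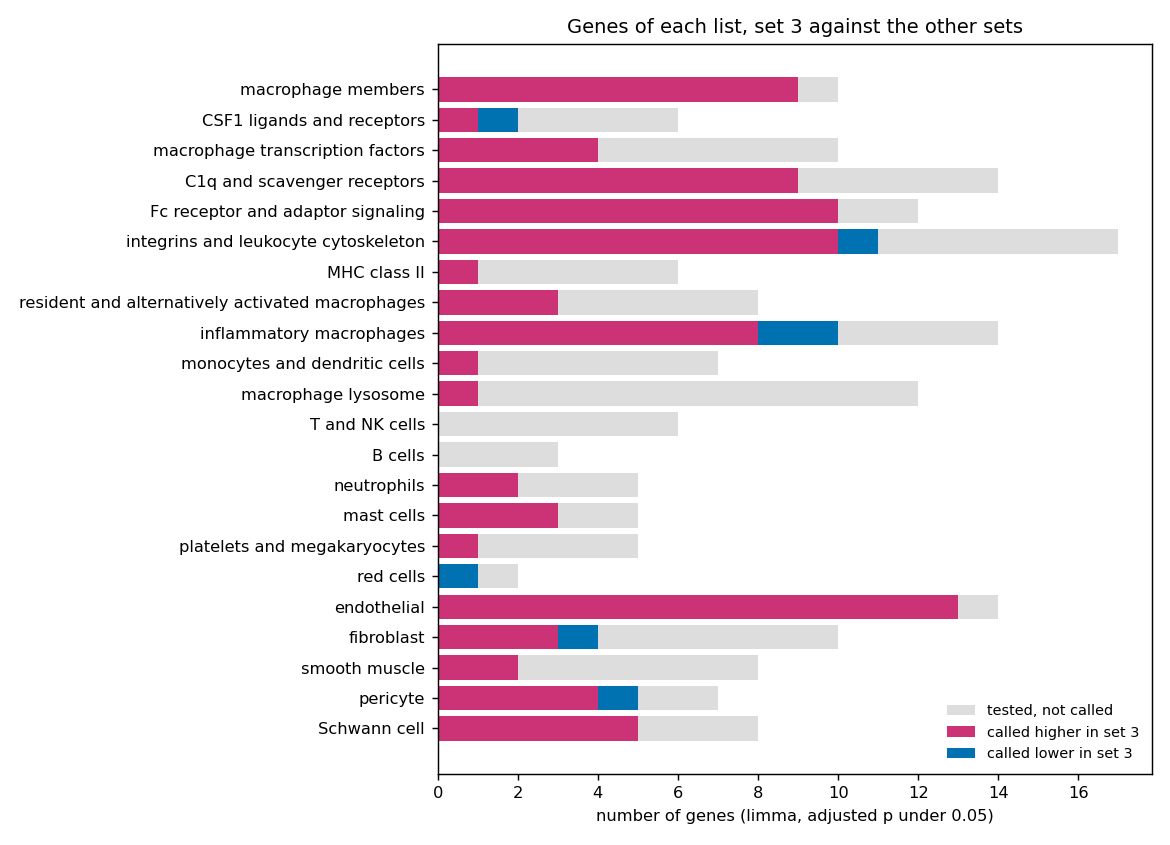
For each gene list, the number of tested genes called higher and called lower in set 3 by limma, beside the number tested. Calls higher in set 3 run from 13 of 14 endothelial markers and 10 of 12 Fc receptor genes to 1 of 12 lysosomal genes. They were 0 of 6 genes of T and NK cells, 0 of 3 of B cells and 0 of 2 of red cells.

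The genes whose pattern was most like the members were ranked by Pearson's r with the mean of the 10 scaled members over the 11 libraries, which share the split of set 3 from the rest. The 10 highest were Cldn5 (0.997), Myod1 (0.994), Fam78a (0.993), Cxcl14 (0.990), C1qb (0.990), Ccm2l (0.989), Gm14548 (0.988), Pecam1 (0.988), AI467606 (0.987) and Fgg (0.987). Cldn5 and Pecam1 are endothelial junction genes, Myod1 is a transcription factor of skeletal muscle and Fgg encodes a chain of fibrinogen. Cldn5, Myod1, Fam78a, Ccm2l, Gm14548 and AI467606 read at most 0.24 outside set 3, so they passed the filter only through set 3. Their high r was thus favoured by the filter. AI467606 was under the floor in set 3 as well. Each member's own r with that mean ran from 0.678 (Csf1r) to 0.994 (Pf4). When the mean of each set was first removed, 0 of these 10 stayed among the 10 highest. Between pairs of members the median r was 0.883 over all 11 libraries and 0.0532 over the 8 outside set 3 (range -0.716 to 0.851).

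The second question is whether glucose or Hsp70 altered these genes. With the set as a block, limma called 0 of 18248 genes in each of the 3 comparisons (0%), and so no member, with 636, 305 and 587 genes at an unadjusted p under 0.05 in high against normal glucose, Hsp70 against high glucose and Hsp70 against normal glucose. Of the members, 0, 2 and 1 had an unadjusted p under 0.05, and the lowest adjusted p of a member was 1, 0.999 and 1. The median standard error of a member was 0.454, 0.406 and 0.454, against 0.222, 0.198 and 0.222 over all genes. Many of the values behind these differences outside set 3 are near or under the floor. The comparisons share libraries, so their values are given side by side only.

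**Figure D5:**
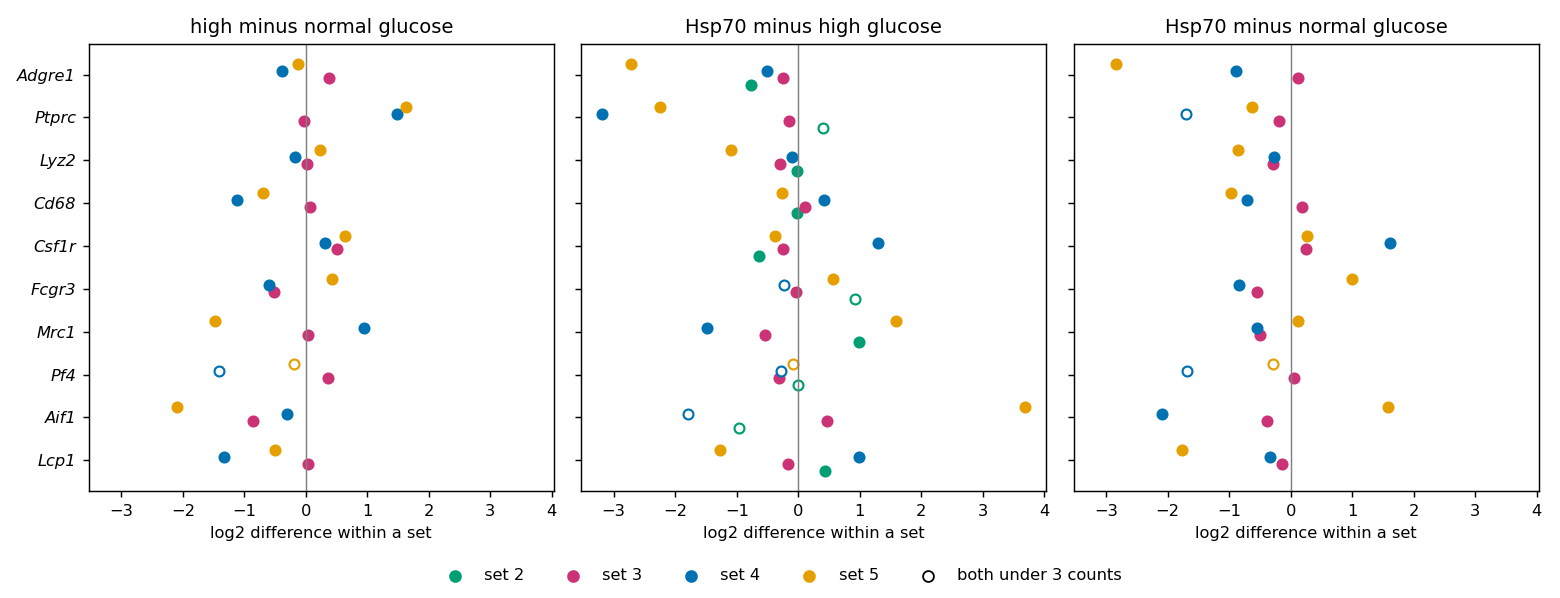
Differences between groups within each set for the 10 genes, in log2 units, in 3 panels: high minus normal glucose, Hsp70 minus high glucose and Hsp70 minus normal glucose. Open circles mark differences between levels that are both under the floor of 3 counts. Points of set 3, where counts are highest, lie between -0.86 and 0.50 in all panels.

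High against normal glucose gave differences of both signs. Lyz2 differed by 0.02, -0.18 and 0.23 within sets 3, 4 and 5, an estimate of -0.04 with a 95% interval of -0.49 to 0.41. Adgre1 differed by 0.38, -0.38 and -0.13, an estimate of -0.09 (-1.23 to 1.05). For Cd68 the differences were 0.07, -1.12 and -0.70, an estimate of -0.57 (SE 0.258, unadjusted p = 0.0529, adjusted p = 1 in limma). The sign of Cd68 in set 3, where its counts are highest, was opposite to that in sets 4 and 5. Over the 10 members the estimates ran from -0.87 (Aif1) to 0.74 (Ptprc), with 8 below 0 and a median of -0.32. Over all genes 49.5% of estimates were above 0. Within set 3 alone, with 1 library a group and no test, 7 of 10 members read higher in high glucose. Their median there was 0.04, and 48.5% of all genes read higher. The interaction of set 3 with this difference was called for 0 genes (486 at an unadjusted p under 0.05) and for no member.

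Hsp70 against high glucose held 2 of the 3 unadjusted p-values under 0.05. Adgre1 stood at 2.29, 9.52, 3.52 and 3.85 in the high glucose libraries of sets 2 to 5 and at 1.52, 9.26, 3.01 and 1.13 in the Hsp70 libraries. Its Hsp70 library read lower in every set, by -0.77, -0.26, -0.51 and -2.72, and the estimate was -1.06 (SE 0.453, unadjusted p = 0.0427, adjusted p = 0.999 in limma). In an exact two-sided sign-flip test 2 of the 16 arrangements of signs over the 4 sets were as extreme, the fewest that 4 sets allow. Lyz2 read 6.98, 11.41, 6.86 and 7.00 in high glucose and 6.97, 11.11, 6.76 and 5.91 with Hsp70. Its differences were -0.02, -0.30, -0.10 and -1.09, also below 0 in 4 of 4 sets, with an estimate of -0.38 (SE 0.178, 95% interval -0.78 to 0.02) and the same result in the exact sign-flip test. In both genes the largest difference was that of set 5, where the Hsp70 library is replicate 4. Without that library the estimates were -0.49 for Adgre1 and -0.18 for Lyz2.

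Ptprc gave 0.40, -0.16, -3.18 and -2.25 in sets 2 to 5, an estimate of -1.30 (SE 0.572, unadjusted p = 0.0482, adjusted p = 0.999 in limma). In set 4 that difference is between levels of 3.19 and 0.01, the second being under the floor. Mrc1 (0.99, -0.54, -1.49 and 1.59) and Aif1 (-0.96, 0.47, -1.79 and 3.68) changed sign from set to set, and Cd68 stayed within 0.41 of 0 in every set. Over the 10 members 5 estimates were below 0, with a median of -0.000664, where 50.7% of all genes were above 0. Within set 3 alone, with 1 library a group and no test, 8 of 10 read lower with Hsp70, from -0.54 (Mrc1) to 0.47 (Aif1) with a median of -0.21, where 49.5% of all genes read lower. The interaction of set 3 with this difference was called for 0 genes (184 at an unadjusted p under 0.05) and for no member.

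Hsp70 against normal glucose gave 9 of 10 estimates below 0, with a median of -0.52 against 0.000133 for all genes. Over all genes 50% of estimates were above 0. Within set 3 alone, with 1 library a group and no test, 6 of 10 members read lower with Hsp70. Their median there was -0.16, and 49.6% of all genes read lower. Adgre1 was estimated at -1.16 (SE 0.507, unadjusted p = 0.0473, adjusted p = 1 in limma), from 0.12, -0.90 and -2.85 within sets 3, 4 and 5, and at -0.49 without Hsp70 replicate 4. The remaining estimates below 0 ran from -0.67 (Lcp1) to -0.02 (Fcgr3), with Lyz2 at -0.42 (95% interval -0.86 to 0.03, and -0.18 without Hsp70 replicate 4) and Cd68 at -0.51. Csf1r alone was above 0, at 0.60 (SE 0.373), from 0.25, 1.60 and 0.26. The value of set 4 is that of Hsp70 replicate 3, whose Csf1r level of 5.86 lay within the range of set 3.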

How the data were processed

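RNA of 11 libraries was extracted with Trizol and made into stranded SMARTer libraries from 1.3 µg, per the labels' protocols. Per the submitters' processing notes, TopHat and edgeR were used with mm10; no versions are named. The deposited values are log2 values, taken here as log2(normalized count + 1) since none is below 0 and low values lie near whole reads. Normalization, annotation, strand use and the handling of shared reads are not stated in these sources. Of 23282 rows, 44 repeated symbols were dropped (the copy with the highest mean kept). The 18248 genes with 3 or more libraries at a normalized count of 1 or more entered limma 3.58.1 (R 4.3.3), with trended and robust variances and Benjamini-Hochberg adjustment at 0.05. Set 3 was compared with the group means in the model, and groups with the file set as a block. Single genes were tested by exact two-sided permutation. Of 23238 symbols 95.6% matched GENCODE M21 (mm10). Promoters are RefSeq's (GRCm38.p6). The fits were tested on simulated data. Figures were drawn with matplotlib 3.10.9.

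The members, the 21 companion lists (203 genes) and the contrasts were chosen with earlier results of these data known. All members were named. From each companion list the genes called were named, up to 4 by the largest difference, and otherwise 2 by level. Genes beyond these were chosen after their values were seen. They include Cd163, Trem2, Maf, Il34, Itgb2, Cd53, Cybb, Cyba, Itgax, Was and Arhgdib. Nos2, Cd80, Fap, Sox17, Cdh5, Egfl7, Tek, Ctsd, Hmgxb3 and Pdgfrb were chosen in the same way. Some genes of the companion lists are not reported here. Alternatives covered filters, scaling, pseudocount, priors, library weights, blocks, sets and single libraries left out. Files pair by set: after group means were removed, libraries of 1 set correlated at 0.594, 0.302 and 0.285 (high and normal glucose, sets 3 to 5), at 0.422, 0.691, 0.0586 and 0.262 (Hsp70 and high glucose, sets 2 to 5) and at 0.458, 0.0219 and 0.372 (Hsp70 and normal glucose). No 2 libraries were copies: the smallest mean absolute log2 difference was 0.33.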

Additional observations from a re-analysis of the deposited data

Results flagged for a closer look

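Within each group of 4 libraries, each member was checked for a library far from the rest by Dixon's criterion (the gap to the nearest of the others over the whole range, at the 95% level). Of 20 groups checked 4 had such a library, each time that of set 3. By chance about 1 in 20 groups has one, but each group holds 1 library of set 3, so these flags restate the difference of set 3 given above and add nothing to it. Lyz2 read 11.41 in high glucose replicate 2 and 6.86 to 7.00 in the other 3 libraries of its group. Lcp1 read 8.89 there and 2.97 to 3.43 in the others. Pf4 read 6.90 in high glucose replicate 2 against 0 to 0.30, and 6.59 in Hsp70 replicate 2 against 0 to 0.14. Groups of 3 libraries, as in normal glucose, were not checked.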

How the results depend on the processing

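The 9 members called higher in set 3 were called under all 23 alternatives, and Csf1r under 2 of them; no member's difference from the other sets changed sign. The number of genes called between set 3 and the rest, 1537, was 6150 with library weights, whose estimation stopped before its convergence tolerance, 2402 against set 5 alone, 911 with the set as a correlated block, and 678 to 2109 with 1 library left out. With library weights 21 genes were called between high and normal glucose and 1 between Hsp70 and normal glucose, none of them a member. In each group comparison 0 genes were called with 1 library left out, without the replicate block, and with a replicate block by title number in place of the file set. Title numbers pair high glucose and Hsp70 as the sets do, but not normal glucose, where libraries of 1 number correlated at -0.224, -0.357 and 0.137 with high glucose and -0.24, -0.26 and -0.127 with Hsp70.

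Between groups no member was called under any alternative, and 53 of 684 estimates turned in sign. For high minus normal glucose these were Lyz2 (0.13 with the title block, 0.0212 in sets 3, 4 and 5 only and 0.0227 in sets 4 and 5 only), Pf4 (0.0026 with a pseudocount of 10) and Mrc1 (0.26 with library weights). With 1 library left out the ranges were -0.53 to 0.34 for Adgre1, -0.24 to 0.0453 for Lyz2, -0.81 to 0.0719 for Pf4, -0.88 to 0.22 for Mrc1 and -1.41 to 0.0440 for Aif1. For Hsp70 minus high glucose, quantile normalization gave 0.0545 for Pf4 and 0.0605 for Lcp1, median centring 0.0041 for Lcp1, a pseudocount of 10 gave -0.0147 for Mrc1 and 0.0433 for Lcp1, and library weights -0.23 for Csf1r. Lcp1 was 0.0502 without set 3, and Mrc1 -0.15 in sets 3, 4 and 5 only. With 1 library left out the ranges were -0.0978 to 0.19 for Cd68, -0.39 to 0.22 for Csf1r, -0.32 to 0.0325 for Pf4, -0.31 to 0.63 for Mrc1, -0.58 to 0.99 for Aif1 and -0.29 to 0.40 for Lcp1. For Hsp70 minus normal glucose, Fcgr3 was 0.0553 with quantile normalization, 0.21 without set 3 and 0.0811 in sets 4 and 5 only; library weights gave 0.0046 for Ptprc, 0.29 for Mrc1, 0.29 for Fcgr3 and 0.63 for Aif1. With 1 library left out the ranges were -0.86 to 0.049999 for Ptprc, -0.52 to 0.23 for Mrc1, -0.47 to 0.25 for Fcgr3 and -1.61 to 0.22 for Aif1. The cause of these changes was not tested. Of the 10 genes most like the members, 0 stayed when set means were removed first. Pf4 could not be tested without set 3, where it fails the filter. Low counts outside set 3 limit what the group comparisons can show: Pf4 was under 3 counts in 8 of 8 such libraries, Ptprc and Aif1 in 5, Fcgr3 in 4, Adgre1 in 2 and Lcp1 in 1.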

Other observations

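Fcgr2b, the inhibitory IgG receptor, 74626 bases from Fcgr3, read lower with Hsp70 than in normal glucose within all of sets 3, 4 and 5. It stood at 6.07, 4.67 and 4.49 in normal glucose and at 5.40, 2.59 and 3.25 with Hsp70 in those sets. The estimate was -1.34 (SE 0.352, unadjusted p = 0.00399, adjusted p = 1 in limma), so it did not pass over all genes. Against high glucose it was -0.92 (SE 0.315, adjusted p = 0.999). Fcgr3 itself gave -0.02 and 0.31 in the same comparisons.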
